A study of Mus musculus with 2 samples.

Results

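Ifng-positive CD8 T cells are described here: cells of 2 single-cell libraries in which at least 1 transcript of Ifng, the gene of interferon-gamma, was counted. Barcodes were first kept as cells with 500 or more genes detected, 1000 or more UMIs (unique molecular identifiers, tags that each mark 1 captured RNA molecule) and no more than 10% of UMIs from mitochondrially encoded genes. The members were then chosen by their Ifng count, so Ifng itself is given as a description. They were 447 of 27258 kept cells: 319 of 13641 in the library labelled NC and 128 of 13617 in the library labelled HC. Below, the rest means the kept cells of the same library with 0 Ifng UMIs, 13322 in NC and 13489 in HC.

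The series used the 10x Genomics 3' chemistry on murine CD8+ T cells from lymph node and asks how electrical stimulation through the matrix relates to T cell fate. There was 1 library in each group, NC and HC, and the labels give tissue and cell type alike for both. The sources used here do not give strain, age, culture, any agent, the meaning of the abbreviations or which library came from stimulated cells. With a lone library a group the groups could not be tested against each other. Intervals are at 95% and cover counting error only. Such intervals take no account of molecules that come in bursts from a few cells, so they are too narrow for genes such as the chemokines and Prf1.

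Interferon-gamma is a cytokine that CD8 T cells and natural killer cells make to alert macrophages and to raise antigen presentation on target cells. In T cells its gene is opened by the factors T-bet (Tbx21) and Eomes, and is transcribed in bursts when the antigen receptor sends calcium, NFAT and AP-1 signals, or when IL-12 and IL-18 act together. The transcript can be short-lived, being held down by RNA-binding decay factors. A count of it is a measure of RNA, and whether these cells made the protein was not measured. Receiving cells bind the protein through Ifngr1 and Ifngr2, which switch on a programme of guanylate-binding proteins, GTPases and MHC genes.

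The label of CD8 T cell held for the members. Cd8a or Cd8b1 was detected without Cd4 in 317 of 319 NC members (99.4%, exact binomial (Clopper-Pearson) interval 97.8 to 99.9%) and in 126 of 128 HC members (98.4%, 94.5 to 99.8%), against 98.4% and 98.3% of the rest. Of 11 marker lists for cell types, the CD8 T cell list summed to 7399 CPM (UMIs per 1000000) in NC members against 7956 in the rest, and to 6063 against 6942 in HC. Some markers of other types were at 0 UMIs in the members of both libraries: Ncr1 and Klrb1c of natural killer cells, Cd4 and Il4 of helper cells, Zbtb16 of NKT cells, C1qa, C1qb and Lyz2 of macrophages, S100a8 and S100a9 of neutrophils, Cpa3 of mast cells, Clec9a, Xcr1 and Siglech of dendritic cells, and Cdh5, Col3a1 and Vwf of stroma and vessels. Il4, C1qa, C1qb, S100a9, Clec9a, Siglech and Col3a1 were also at 0 in the rest of both libraries, so they do not set members apart. The others were in few cells of the rest of NC and HC: Cd4 in 1 and 2, Ncr1 and Zbtb16 each in 0 and 1, Vwf in 1 and 0. Cdh5 was in 2 and 1, Cpa3 in 3 and 2, S100a8 in 2 and 0, Xcr1 in 8 and 19, Klrb1c in 11 and 10, and Lyz2 in 14 and 0. Their zeros in the members do not set these apart either, and requiring no Cd4 left out few cells. Other listed markers were found in members, given as NC and then HC cells. Of natural killer genes, Eomes was in 29 and 15, Klre1 in 18 and 16, Gzma in 16 and 18, and Fcer1g in 3 and 3. Of B cell genes, Cd79b was in 33 and 11 and Cd79a in 3 and 1. Pecam1 of the stroma list was in 76 and 28. Of dendritic genes, H2-Ab1 was in 27 and 39 and Cd74 in 31 and 4. Cd1d1 of the NKT list was in 18 and 11, and Cd68 of the macrophage list in 13 and 6. Kit of the mast cell list was in 14 and 1, and Trdc of the gamma-delta list in 177 and 76. Trdc was also found in 6393 and 5758 cells of the rest. In NC the summed B cell list stood at 15.9 CPM in members and 37.6 in the rest, the macrophage list at 4.17 and 6.91, the stroma list at 29.7 and 44.2, the neutrophil and mast cell list at 3.65 and 8.34, the helper list at 3.91 and 4.30, and the NKT and MAIT list at 5.48 and 8.94. In HC members these 6 lists stood at 9.57, 3.83, 21.1, 0.638, 2.55 and 7.02 CPM, against 17.2, 3.35, 41.2, 3.66, 5.73 and 7.38 in the rest. The natural killer list was higher in members, at 30.5 against 20.1 CPM in NC and 47.9 against 33.8 in HC, with 3 of its 10 genes at 0 in NC members and 5 in HC members. The dendritic list stood at 27.9 against 27.6 CPM in NC and 45.9 against 44.8 in HC, the gamma-delta list at 133 against 134 and at 118 against 114, and the regulatory list, which holds Il2ra and Ctla4, at 459.5 against 487 and at 642 against 556. The part of these markers in the results below was not tested.

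Members were deeper than the rest, and that bears on every comparison. Their median was 10096 UMIs and 2653 genes in NC, against 6840.5 UMIs and 2019 genes, and 11665.5 UMIs and 2937.5 genes in HC, against 7397 UMIs and 2171 genes. Median mitochondrial shares were 3.71% in NC members and 3.94% in the rest, and 3.97% and 4.36% in HC. The libraries held 115789139 and 114430972 UMIs in kept cells. They shared 64 barcodes, of which 49 were kept in both and none was a member in both. Doublets were not removed.

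NC held more Ifng-positive cells and far more Ifng RNA than HC. The share of members was 2.34% in NC (2.09 to 2.61%) and 0.940% in HC (0.785 to 1.12%), a 2.49-fold difference (2.02 to 3.08) in the quantity that defines the members. Summed Ifng was 913 UMIs in NC (7.89 CPM, exact Poisson interval 7.38 to 8.41) and 208 in HC (1.82 CPM, 1.58 to 2.08), 4.34-fold higher in NC (3.73 to 5.07). Cells with at least 2 Ifng UMIs numbered 97 in NC and 19 in HC, a 5.10-fold difference in share (3.09 to 8.83), while cells with exactly 1 numbered 222 and 109, a 2.03-fold difference (1.61 to 2.58). Cells were also thinned to 2000 UMIs each, setting aside 133 shallower cells of NC and 94 of HC, with no member among them. An Ifng UMI then remained in 114 of 13508 cells in NC (0.844%) and 33 of 13523 in HC (0.244%), 3.46-fold apart (2.33 to 5.26). These are values of 2 libraries, with no replicate check of the difference.

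A small number of cells held most of the NC message. Of the 319 NC members, 31 carried at least 5 Ifng UMIs and these held 57.4% of the library's Ifng UMIs; 14 carried at least 10 and held 46.1%. The highest NC cell had 83 Ifng UMIs and the highest HC cell 13. In HC, 7 cells had at least 5 UMIs, with 31.3% of the total, and 3 had at least 10, with 17.3%. Over cells with fewer than 5 UMIs alone, the sums were 389 in NC and 143 in HC, 2.69-fold apart (2.21 to 3.28), a smaller gap than over all cells. The 14 NC cells with at least 10 Ifng UMIs all carried Cd8b1 and Cd3e, 13 carried Cd8a, and none had a UMI of Cd4, Ncr1, Cd79a or Tyrobp. The same held for the 3 such HC cells, all of which carried Cd8a.

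**Figure D1:**
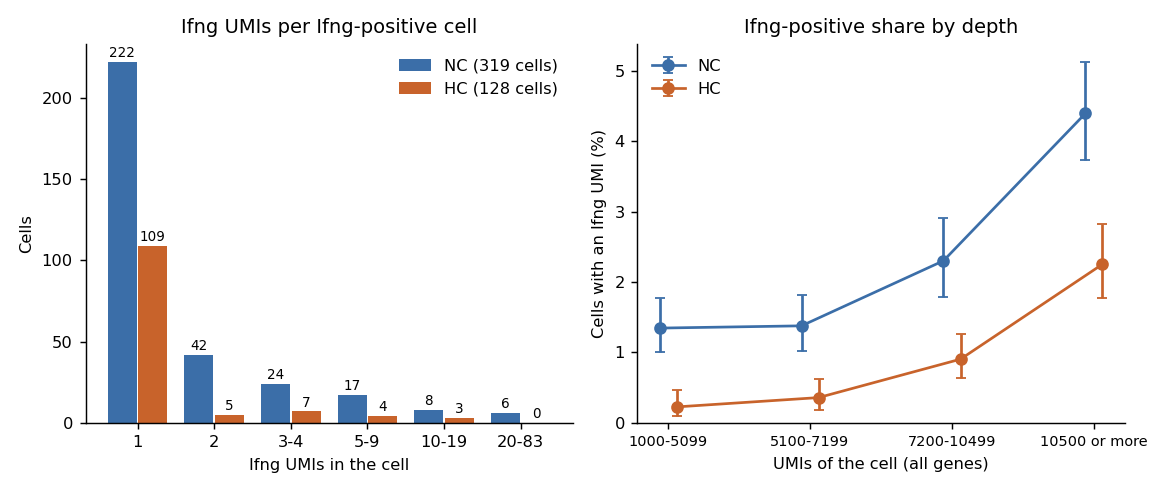
Left, number of Ifng-positive cells (y axis) by Ifng UMIs in the cell (x axis) in NC and HC. Right, share of kept cells with an Ifng UMI (y axis, %) in 4 ranges of the cell's total UMIs (x axis), with exact binomial 95% intervals. Of the members, 222 of 319 in NC and 109 of 128 in HC had 1 Ifng UMI, and NC lies above HC in each range.

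The Ifng-positive share was larger in deeper cells of both libraries, and NC was above HC in each of 4 depth ranges. From 1000 to below 5100 UMIs it was 1.35% in NC (50 of 3717 cells) and 0.226% in HC (7 of 3104). From there to below 7200 UMIs it was 1.38% and 0.358%, in the next deeper range 2.30% and 0.904%, and in the deepest 4.39% (153 of 3482) and 2.25% (74 of 3286). In HC no cell under 7200 UMIs had 2 or more Ifng UMIs, while 18 such cells were found in NC. Free RNA can place a UMI in a cell that does not express the gene. The cell type that should lack Ifng was too rare to set that level: of 19 NC cells with at least 3 B cell markers, 1 had an Ifng UMI (5.26%, 0.133 to 26.0%, median 14145 UMIs), only 3 of the 19 lacked Cd8a, Cd8b1 and Cd3e, and HC held 1 such cell.

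Ifng-positive cells of both libraries were marked by chemokine, perforin, granzyme and activation receptor genes. With a gene tested where either pool reached 20 CPM and called where pooled CPM differed at least 2-fold, 65 of 5216 genes (1.25%) were higher and 13 (0.249%) lower in Ifng-positive NC cells, and 44 of 5206 (0.845%) were higher and 22 (0.423%) lower in Ifng-positive HC cells. Of these calls, 32 of the 65 and 29 of the 44 higher reached 20 CPM in the members alone, and 10 of the 13 and 17 of the 22 lower in the rest alone. Such genes had to differ to be tested, which favours their calls and the list counts below. The median log2 ratio over all genes tested was 0.05 in each. With TMM factors, an alternative scaling, the HC split turned to 32 higher and 42 lower, and the NC split was 52 and 18. Higher in both were 28 genes, 43.1% of the NC and 63.6% of the HC calls, and 3 were lower in both (Iigp1, Tcf7 and Ypel5; 23.1% and 13.6%). No gene called in one library was called the other way in the other. Of the 28, 15 were still called in both when the rest was weighted to the members' depth, 17 without the 10 cells of each library with the most Ifng UMIs, and 11 when only members with exactly 1 Ifng UMI were used.

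The 15 genes with the most Ifng-like pattern, ranked by whichever library's ratio lay nearer to 0, were Ccl3, Ccl4, Xcl1, Rgs16, Prf1, Nr4a2, Crtam, Tnfrsf9, Rgs1, Gzmb, Serpinb9, Ccl5, Cdkn1a, Egr3 and Ccdc86. Their log2 ratios ran from 1.18 to 4.42 in NC and from 1.2 to 5.32 in HC. They include chemokines, both parts of the perforin and granzyme system, activation receptors (Crtam, Tnfrsf9), G protein regulators that damp chemokine receptor signalling (Rgs1, Rgs16) and transcription factors induced by receptor signals (Nr4a2, Egr3). The 10 at the other end were Iigp1, Ypel5, Tcf7, Ifi206, Slfn1, BE692007, Igf1r, S1pr1, Cdkn1b and Syt11, with log2 ratios of -1.16 to -0.89 in NC and -2.19 to -0.87 in HC. Among these, S1pr1 guides exit from lymph nodes, Cdkn1b brakes the cell cycle and Tcf7 sustains the naive and memory state. With the rest weighted to the members' depth, the genes called lower numbered 3 in NC and 5 in HC.

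**Figure D2:**
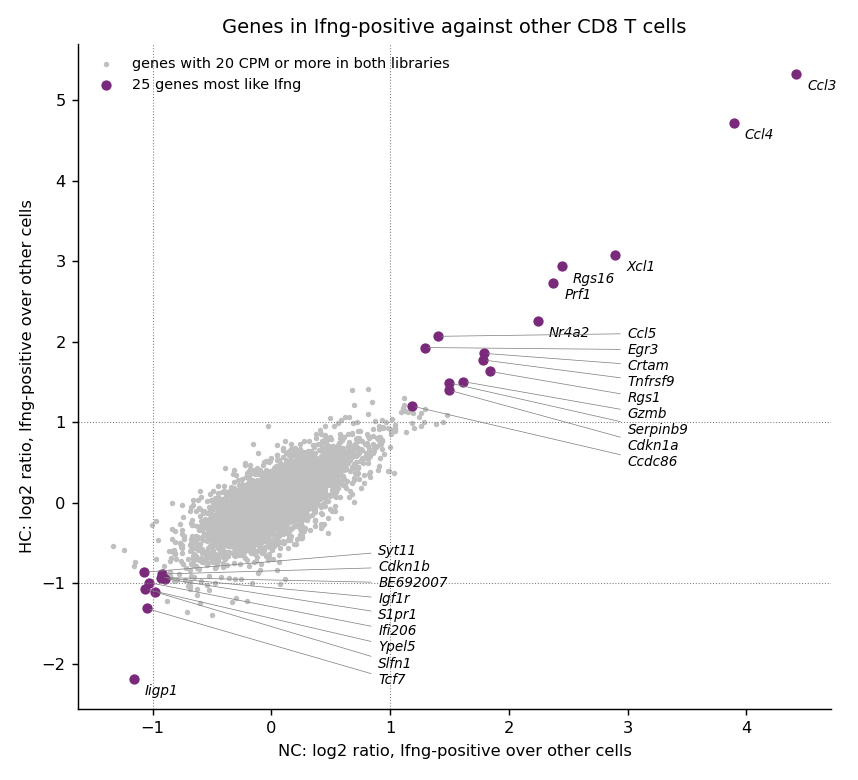
Each point is a gene with at least 20 CPM in a pool of each library, placed by its log2 ratio of Ifng-positive cells over the rest in NC (x axis) and HC (y axis). Dotted lines mark 2-fold. Ccl3, Ccl4 and Xcl1 lie farthest out in both libraries and Iigp1, Ypel5 and Tcf7 lie past 2-fold lower in both.

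The promoter windows of Ifng and of 2 of the 3 genes nearest to it, Ccl3 and Xcl1, are shown because these genes were higher together in the members. They run from 250 to 11 bases before the RefSeq start, in GRCm38.p6, read 5′ to 3′ on the gene's strand, outside the gene's exons. Ifng lies at chr10:118441046-118445894 on the plus strand, with its window at chr10:118440796-118441035. Ccl3 lies at chr11:83647843-83649378 on the minus strand, with its window at chr11:83649389-83649628, and Xcl1 at chr1:164931644-164935522 on the minus strand, with its window at chr1:164935533-164935772. Capitals mark GGAAA, the core of an NFAT site, or its reverse TTTCC, and TATAAA or its reverse.
Ifng: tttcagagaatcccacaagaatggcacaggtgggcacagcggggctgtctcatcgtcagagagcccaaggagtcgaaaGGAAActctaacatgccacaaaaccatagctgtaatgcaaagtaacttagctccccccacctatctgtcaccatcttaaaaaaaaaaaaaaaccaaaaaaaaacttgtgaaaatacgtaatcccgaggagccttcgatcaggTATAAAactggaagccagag
Ccl3: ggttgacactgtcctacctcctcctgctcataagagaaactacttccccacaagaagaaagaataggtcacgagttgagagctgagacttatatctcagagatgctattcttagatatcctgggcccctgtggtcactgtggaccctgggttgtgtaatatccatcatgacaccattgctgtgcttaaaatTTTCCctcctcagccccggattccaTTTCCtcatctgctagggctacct
Xcl1: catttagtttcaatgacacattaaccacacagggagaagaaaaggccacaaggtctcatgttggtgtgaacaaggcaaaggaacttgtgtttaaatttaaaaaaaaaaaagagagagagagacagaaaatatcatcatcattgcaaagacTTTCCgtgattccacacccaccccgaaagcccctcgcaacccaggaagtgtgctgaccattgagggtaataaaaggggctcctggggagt
The letters GGAAA were found on either strand 1 time before Ifng, its first base 172 bases before the start, 2 times before Ccl3 (59 and 34 bases before) and 1 time before Xcl1 (100 bases before). TATAAA was found before Ifng, 30 bases from the start, and in neither other window. The AP-1 letters TGANTCA, the cyclic AMP response element TGACGTCA, the NR4A site AAAGGTCA and the T-box core AGGTGT, searched on both strands, were in none of the 3, and no matches overlapped. Of Ifng and its 15 nearest genes, 11 were matched in the RefSeq table (Ccl4, Crtam, Rgs1, Ccl5 and Egr3 were not), and 8 of the 11 held GGAAA, a string found in 54.1% of all 32851 windows of this length. TGANTCA was found before Gzmb, TGACGTCA before Ccdc86, AGGTGT before Prf1 and TATAAA before Ifng and Nr4a2, while 6.58%, 1.44%, 11.5% and 12.1% of all windows hold these, and 1.28% hold AAAGGTCA.

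Chemokines were the group that set the Ifng-positive cells farthest from the rest. All 4 tested members of the chemokine list (11 genes) were at least 2-fold higher in both libraries, with a median log2 ratio of 3.40 in NC and 3.90 in HC beside 0.05 for all genes. Over all genes tested, 1.25% in NC and 0.845% in HC were at least 2-fold higher. Ccl3 in both libraries and Ccl4 in HC were under the floor of 20 CPM in the rest, which favours their calls. Ccl3, an inflammatory chemokine, was at 410.0 CPM in Ifng-positive NC cells against 19.1 in the rest, 21.4-fold (20.1 to 22.9) higher, and at 135 against 3.37 in HC, a log2 ratio of 5.32 (5.07 to 5.57). Ccl4, its neighbour on chromosome 11 and also an inflammatory chemokine, was at 1071 against 72.0 CPM in NC, 14.9-fold (14.3 to 15.4), and at 389.8 against 14.8 in HC, 26.4-fold (24.0 to 29.0). Xcl1, which draws cross-presenting dendritic cells, was at 1868 against 251 CPM in NC, 7.45-fold (7.26 to 7.65), and at 244 against 28.9 in HC, 8.46-fold (7.59 to 9.40). Ccl5, a chemokine of effector and memory CD8 cells, was 2.65-fold (2.51 to 2.80) higher in NC and 4.18-fold (3.86 to 4.53) higher in HC. In both libraries the members lay above the rest for all 4 genes.

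The chemokine message was carried unevenly. Xcl1 was detected in 202 of 319 NC members and 23 of 128 HC members, and the 10 highest cells held 37.4% of the members' Xcl1 UMIs in NC and 87.7% in HC. For Ccl3 the 10 highest cells held 52.2% and 85.8%, and for Ccl4 39.8% and 84.3%. Among the 14 NC cells with at least 10 Ifng UMIs, Xcl1 ran from 0 to 401 UMIs (median 90.5), Ccl3 from 0 to 169 (median 35) and Ccl4 from 6 to 245 (median 115). Thinned to 2000 UMIs per cell, Ccl4 remained in 40.8% of NC members and 6.15% of the rest, and in 18.0% and 1.2% in HC, so the contrast was also seen at equal depth. Unthinned, those shares were 59.6%, 12.9%, 26.6% and 3.18%.

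Several of these genes were graded with the amount of Ifng in the cell. In NC cells with 0, 1, 2 to 4, and at least 5 Ifng UMIs, which were 13322, 222, 66 and 31 cells, Xcl1 was at 251, 815, 2165 and 7527 CPM. Cells just inside the threshold, with 1 Ifng UMI, therefore already differed from those just outside it. Ccl3 went through 19.1, 128, 314 and 2320.1 CPM over the same classes. Prf1, which encodes perforin, went through 11.6, 31.3, 75.4 and 200.0 CPM. Klf2, a quiescence and trafficking factor, ran the other way in NC, at 409.8, 309, 216 and 19.3 CPM. In HC the classes held 13489, 109, 12 and 7 cells, and Klf2 did not keep an order there, with 493, 364, 69.8 and 299 CPM. Ccl5 was not graded, at 139, 387, 366 and 246 CPM in NC. Depth was also higher from class to class, with medians of 6840.5, 8709, 12170 and 14347 UMIs in NC, and its part was not tested.

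**Figure D3:**
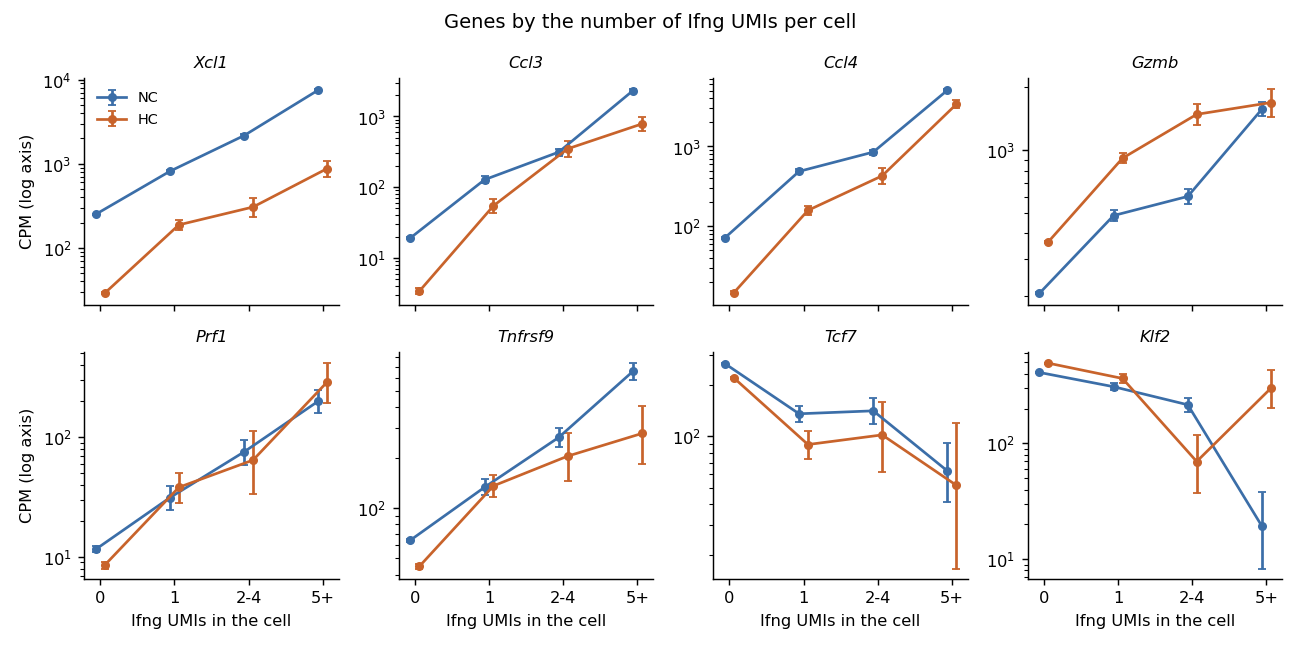
CPM (log axis) of 8 genes in cells with 0, 1, 2 to 4, and 5 or more Ifng UMIs (x axis) in NC and HC, with exact Poisson 95% intervals. Xcl1, Ccl3, Ccl4, Gzmb, Prf1 and Tnfrsf9 increase from class to class in both libraries, while the lowest Klf2 value is in the last class in NC and in the class of 2 to 4 UMIs in HC.

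Of the other cytokine genes, Tnf and Lta were called higher in NC members, and Tnfsf8 was called lower in HC members. Of the 28 cytokine genes, 7 passed the floor of 20 CPM in NC, with 2 called higher, and 5 in HC, with 1 called lower. Tnf and Lta passed it in NC through the members alone, which favours their calls. Tnf, the tumour necrosis factor gene, was at 21.6 CPM in NC members against 6.64, 3.26-fold (2.57 to 4.10) higher, and was found in 53 of 319 cells. Its HC values, 15.3 against 4.03 CPM, were under the floor (24 UMIs in 15 cells). Lta, which encodes lymphotoxin alpha, was 3.06-fold (2.50 to 3.71) higher in NC, at 29.7 against 9.72 CPM, and under the floor in HC at 16.6 against 7.06. Ltb, which encodes lymphotoxin beta, was at 722 against 832 CPM in NC and 556 against 684 in HC, and Mif, a broadly expressed cytokine gene, at 664 against 549 and 1167 against 847, both short of 2-fold. The T cell growth factor gene Il2 was found in 8 NC members with 28 UMIs, 21 of them in 1 cell that also had 59 Ifng UMIs, and in 2 HC members. Csf2, which encodes GM-CSF, had 2 UMIs in NC members and 1 in HC members. Tnfsf8 was the 1 cytokine gene called lower in HC, at 8.93 against 21.0 CPM, with 29.0 against 36.5 in NC. It was under 20 CPM in HC members, which favours its call. Over all genes tested, 1.25% in NC and 0.845% in HC were called higher, and 0.249% and 0.423% were called lower. The list's median log2 ratio was 0.28 in NC and -0.30 in HC, beside 0.05 for all genes. Its sign depended on the processing, with ranges of -0.22 to 2.17 in NC and -0.36 to 0.67 in HC over the alternatives.

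Ifng-positive cells often carried several of Xcl1, Ccl3, Ccl4 and Tnf at once. At least 2 of the 4 were detected in 172 of 319 NC members (53.9%, 48.3 to 59.5%) against 11.1% of the rest, and in 24 of 128 HC members (18.8%, 12.4 to 26.6%) against 1.65%. At 2000 UMIs per cell the shares were 35.7% against 4.17% in NC and 11.7% against 0.478% in HC. In NC the share climbed from 42.3% at 1 Ifng UMI to 74.2% at 2 to 4 and 93.5% at 5 or more. All 4 were found in 34 NC and 6 HC members. None of the 4 was found in 66 NC members (20.7%) and 79 HC members (61.7%), so most HC members had Ifng without these partners at this depth.

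Read the other way, the number of co-products in a cell went with its chance of an Ifng UMI, in both libraries. With 0, 1, 2, 3 and 4 of the genes detected, the Ifng-positive shares were 0.816%, 2.07%, 5.73%, 15.7% and 28.1% in NC, and 0.666%, 1.65%, 5.92%, 14.8% and 26.1% in HC. Within each class the intervals of the libraries overlapped: 20.3 to 37.0% in NC (34 of 121 cells) and 10.2 to 48.4% in HC (6 of 23) for all 4 genes. The class sizes differed between the libraries: cells with at least 2 of the genes were 12.1% of NC (1644 cells) and 1.81% of HC (246 cells), of which 10.5% (9.02 to 12%) and 9.76% (6.35 to 14.2%) were Ifng-positive. Weighted to NC's class sizes, the HC share of Ifng-positive cells was 2.09% in place of 0.940%, beside 2.34% in NC, a 1.12-fold difference in place of 2.49-fold. Weighted the other way, NC stood at 1.12% beside 0.940% in HC, 1.19-fold. These classes were formed after the values were seen, from Tnf and the 3 genes most like Ifng in these same cells. A smaller gap after weighting was thus favoured in advance, and what the gap comes from was not tested. Cells with at least 2 Ifng UMIs were 16.5% of the 4-gene class in NC and 4.35% in HC (1 cell), and 7.06% and 7.41% of the 3-gene class. The cells of the classes also differ in depth, with medians of 6411 to 11153 UMIs in NC and 7209 to 10513 in HC. How much of the 0.816% and 0.666% in cells without co-products is free RNA was not tested.

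**Figure D4:**
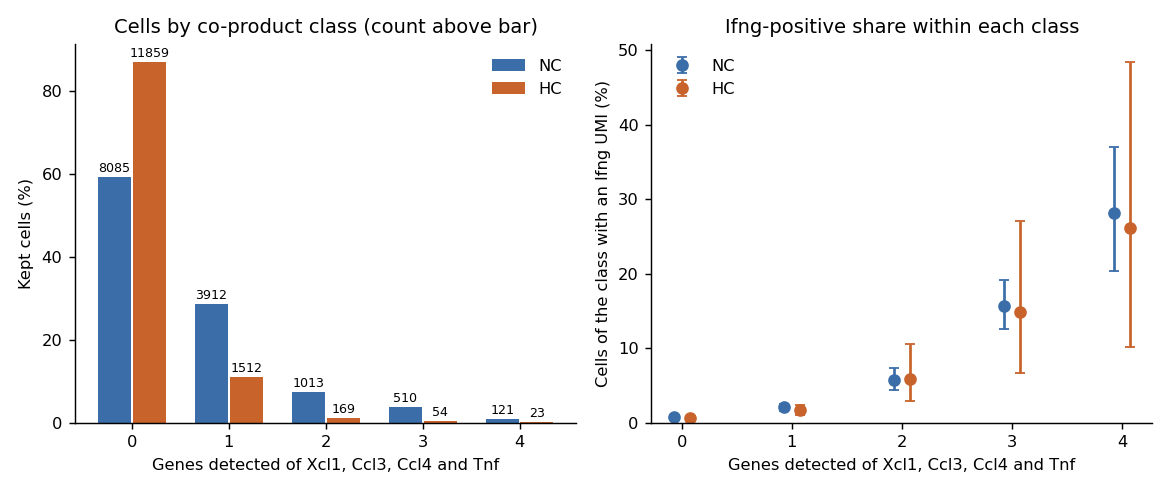
Left, share of kept cells (y axis, %) by how many of Xcl1, Ccl3, Ccl4 and Tnf were detected (x axis), with cell counts above the bars. Right, share of the cells of each class with an Ifng UMI (y axis, %), with exact binomial 95% intervals. The classes differ in size between NC and HC, while the Ifng-positive shares within them overlap, from 0.816% and 0.666% at 0 genes to 28.1% and 26.1% at 4.

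Cytotoxic genes were higher in part. Of the 20 genes on the cytotoxic list 13 were tested, and 2-fold or more was reached by 4 in NC and by 4 in HC, all upward, with median log2 ratios of 0.29 and 0.35. Among all genes tested, 1.25% in NC and 0.845% in HC were called higher. Prf1 in both libraries, Gzmc in NC and Serpinb9 in HC were under 20 CPM in the rest, which favours their calls. Prf1, whose product forms the pores that let granzymes in, was at 60.2 against 11.6 CPM in NC, 5.19-fold (4.49 to 5.98), and 56.8 against 8.55 in HC, 6.64-fold (5.28 to 8.26). Gzmb, the death-inducing serine protease, was at 632 against 206 CPM in NC, 3.06-fold (2.94 to 3.2), and 1032 against 364 in HC, 2.83-fold (2.70 to 2.98), and was detected in 77.7% of NC and 92.2% of HC members. Serpinb9, which shields the cell from its own granzyme B, was 2.83-fold (2.46 to 3.23) and 2.80-fold (2.21 to 3.51) higher. Gzmc passed 2-fold in NC, at 30.8 against 6.59 CPM, and Serpinb6b, another serpin gene, in HC, at 272 against 126. Gzma was at 10.7 against 6.91 CPM in NC and 18.5 against 20.8 in HC, short of 2-fold.

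Genes switched on soon after receptor triggering were higher in part. On a list of 30, 6 of 20 tested were called higher in NC (Nr4a1, Nr4a2, Nr4a3, Egr2, Egr3 and Irf8) and 4 of 16 in HC (Nr4a2, Egr1, Egr3 and Myc), with medians of 0.65 and 0.45 on the log2 scale. Among all genes tested, 1.25% in NC and 0.845% in HC were called higher. Nr4a1, Nr4a3, Egr2 and Egr3 in NC, and Nr4a2 and Egr3 in HC, were under the floor of 20 CPM in the rest. They were tested only through the members, which favours these counts. Nr4a2, an orphan nuclear receptor, was 4.75-fold (4.24 to 5.31) higher in NC and 4.79-fold (3.77 to 6.0) in HC. Nr4a1, a sensor of receptor signal strength, was at 41.2 against 9.93 CPM in NC and 13.4 against 6.90 in HC, the latter under the floor. Egr3, a zinc finger factor induced by calcium signals, was 2.45-fold (2.09 to 2.86) and 3.8-fold (2.97 to 4.80) higher. These genes were present in a minority of members: Egr2 in 16.3% of NC and 10.2% of HC members, against 3.65% and 1.97% of the rest.

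Of the transcription factors known to drive Ifng, Bhlhe40 in NC was called, and Eomes had large ratios at low counts. Of 17 tested in NC on a list of 25, 1 was called higher, Bhlhe40, at 46.9 against 21.4 CPM, and of 18 in HC none was, with medians of -0.26 and -0.33. Over all genes tested, 1.25% in NC and 0.845% in HC were called higher. Tbx21, the gene of T-bet, had log2 ratios of 0.86 (0.61 to 1.09) in NC and 0.73 (0.32 to 1.11) in HC, short of 2-fold in both. Eomes, its relative, was 4.03-fold (2.87 to 5.53) higher in NC, at 11.5 against 2.85 CPM (44 UMIs), and 7.54-fold (4.36 to 12.3) higher in HC, at 11.5 against 1.52 (18 UMIs), under the floor of 20 CPM in both. Rel, an NF-kappaB subunit, stood at log2 ratios of 0.86 and 0.92. Irf1 was lower, at -0.83 and -0.60, also short of 2-fold.

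A few activation receptors were higher in members of both libraries. The same 4 of 15 tested co-stimulation and activation receptors, Crtam, Tnfrsf9, Il2ra and Tnfrsf4, were called higher in each library, while the list's medians were 0.05 and 0.09. Over all genes tested, 1.25% in NC and 0.845% in HC were called higher. Crtam in HC was under 20 CPM in the rest, which favours its call. Tnfrsf9, the 4-1BB receptor, was at 221 against 64.1 CPM in NC, 3.45-fold (3.21 to 3.70), and 153 against 44.7 in HC, 3.41-fold (2.99 to 3.89). Crtam, an adhesion receptor of activated cytotoxic cells, was 3.46-fold (3.05 to 3.92) and 3.62-fold (2.54 to 5.01) higher. Il2ra, the high-affinity IL-2 receptor chain, was at 69.4 against 28.3 CPM and 109 against 48.6, and Tnfrsf4, or OX40, at 88.7 against 40.6 and 97.0 against 44.1. Of 8 tested inhibitory receptor genes, 3 were higher in NC (Pdcd1, Cd160 and the ligand gene Cd274) and of 6 in HC 1 was (Pdcd1), with medians of -0.04 and 0.01. Cd274 was under 20 CPM in the rest of NC, which favours its call. Havcr2, the gene of TIM-3, was under that floor in both libraries, with large ratios at low counts. It was 9.73-fold (4.24 to 20.5) higher in NC, with 10 UMIs in members, and 9.82-fold (1.88 to 32.7) in HC, with 3. Pdcd1, which encodes PD-1, was at 72.0 against 33.3 CPM and 67.0 against 27.2, whereas Lag3 was at 88.4 against 90.6 and 93.8 against 96.4.

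Few cytokine receptor genes reached 2-fold. Il18r1, a chain of the IL-18 receptor, was 2.76-fold (2.19 to 3.45) higher in NC and under the floor in HC (17.2 against 9.14 CPM). Il12rb2, the signalling chain of the IL-12 receptor, was at 29.5 against 38.2 CPM in NC and 50.4 against 46.1 in HC. On the list of 22 cytokine receptors, 2 of 14 were called higher in NC (Il18r1 and Il2ra) and 1 of 12 in HC (Il2ra), none was called lower, and the medians were -0.30 and -0.17. Among all genes tested, 1.25% in NC and 0.845% in HC were called higher. Il18r1 was under the floor in the rest of NC, which favours its call. Il7r, the survival receptor of resting T cells, was lower without reaching 2-fold, at log2 ratios of -0.82 (-0.94 to -0.70) and -0.97 (-1.18 to -0.77). Ifngr1, the receptor for interferon-gamma itself, was at 152 against 193 CPM in NC and 238 against 223 in HC.

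Tcf7 was the naive and memory gene called lower in both libraries. On the naive and memory list, 2 of 17 tested in NC were at least 2-fold lower (Tcf7 and Klf3) and 2 of 18 in HC (Tcf7 and Dapl1), none was higher, and 2 and 1 lay above 0, with medians of -0.54 and -0.45 beside 0.05 for all genes. Over all genes tested, 0.249% in NC and 0.423% in HC were called lower, and 56.9% and 56.0% lay above 0. Klf3 was under 20 CPM in NC members, at 14.6 against 32.7 CPM in the rest, which favours its call. Tcf7, the gene of TCF-1, was at 129 against 267 CPM in NC and 88.7 against 221 in HC, log2 ratios of -1.05 (-1.18 to -0.92) and -1.31 (-1.57 to -1.07). With the rest weighted to the members' depth they were -0.82 and -1.03, so the NC value ended short of 2-fold. An exception on the list was Ly6c2, an effector and memory surface marker, at log2 ratios of 0.90 and 0.78. Among 24 homing and chemokine receptor genes 1 of 14 tested was called lower in NC, Itgae, and none of 13 in HC, with medians of -0.43 and -0.35, the latter ranging from -1.02 to 0.08 over the alternatives. Itgae was under 20 CPM in NC members, at 10.2 against 25.4 CPM in the rest, which favours its call. Ccr7, which brings T cells into lymph nodes, stood at -0.79 in NC and -0.96 in HC, and S1pr1, which lets them leave, at -0.89 and -0.95.

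Few genes that interferon-gamma induces reached 2-fold in the cells that carried its message, in either direction. Of 22 tested in NC on a list of 34, 2 were called higher (Irf8 and Cd274) and 1 lower (Iigp1), and of 20 in HC none was higher and 1 lower (Iigp1), with 3 above 0 in each and medians of -0.33 and -0.24 beside 0.05 for all genes. Over all genes tested in NC and HC, 1.25% and 0.845% were called higher and 0.249% and 0.423% lower, and 56.9% and 56.0% lay above 0. Cd274 in the rest of NC and Iigp1 in the members of both libraries were under 20 CPM, which favours these calls. Iigp1, an immunity-related GTPase, was at 13.0 against 29.1 CPM in NC (50 UMIs) and 4.47 against 20.3 in HC (7 UMIs), and with depth weighting its NC log2 ratio of -1.16 was -0.65. Gbp2, a guanylate-binding protein gene, was at log2 ratios of -0.97 and -0.71. Irf8 and Cd274 went through 43.3, 79.9, 116 and 304 CPM and through 9.33, 14.5, 28.0 and 55.4 CPM over the NC classes of 0, 1, 2 to 4, and 5 or more Ifng UMIs. In HC, Irf8 went through 45.7, 63.9, 123.5 and 371.6 CPM. Cd274 was at 5.89, 4.67, 5.37 and 10.3 CPM there, with 8 UMIs in all members.

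No tested gene of the S phase or the G2 and M lists reached 2-fold between members and the rest. The S phase list had 36 of 37 tested genes above 0 in NC and 26 of 37 in HC, beside 56.9% and 56.0% of all genes tested, with medians of 0.24 and 0.10. Over the alternatives of processing these medians ranged from 0.037 to 0.70 in NC and from -0.0003 to 0.52 in HC. Summed S phase genes were at 3429 CPM in NC members against 2860 in the rest, and at 3576 against 3287 in HC. Summed G2 and M genes were at 7613 against 7650 CPM in NC and 8562 against 9181 in HC, with medians of -0.05 and -0.10 and no gene called. With each cell thinned to 2000 UMIs the S phase sums were 3243 against 2435 CPM in NC and 3438 against 2935 in HC, and the G2 and M sums 6520.4 against 6585 in NC and 8449 against 8119.6 in HC, so the HC order of the latter turned. Mki67, the proliferation antigen gene, was at 358 against 357 CPM in NC and 485 against 523 in HC. It was detected in 64.3% of NC members and 53.2% of the rest, and in 85.9% and 69.1% in HC. At 2000 UMIs per cell these shares were 33.5% and 32.4% in NC and 53.9% and 46.2% in HC. Cells with 0 UMIs of both Mki67 and Top2a held 66 NC and 11 HC members, 1.55% and 0.378% of such cells, a 4.11-fold difference (2.16 to 8.64). Cdkn1a, the inhibitor p21, was 2.83-fold (2.28 to 3.48) and 2.63-fold (1.98 to 3.43) higher in members. It was under 20 CPM in the rest, at 9.22 in NC and 13.6 in HC, which favours its calls. Its lowest log2 ratios over the alternatives were 0.55 in NC and 0.94 in HC, short of 2-fold.

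A few ribosome assembly genes reached 2-fold. All 23 tested genes of that list lay above 0 in NC and all 21 in HC, where 56.9% and 56.0% of all genes tested did, with medians of 0.79 and 0.67, and 4 (Rrp9, Rrs1, Gnl3 and Nolc1) and 1 (Rrp9) passed 2-fold. Among all genes tested, 1.25% in NC and 0.845% in HC were called higher. Gnl3, which encodes nucleostemin, was at 180.2 against 87.6 CPM in NC and 103 against 55.2 in HC. Srm, the spermidine synthase gene and a known Myc target, was 2.37-fold (2.17 to 2.57) and 2.08-fold (1.71 to 2.51) higher, and Myc itself stood at log2 ratios of 0.96 and 1.01. The remaining lists lay near 0. Medians in NC and HC were 0.18 and 0.28 for glycolysis, 0.10 and 0.06 for hypoxia, -0.07 and -0.07 for the receptor complex and its proximal signalling, and -0.22 and -0.22 for mRNA decay factors, with no gene called in any of these 4. The survival and death list had medians of 0.17 and -0.03, with the anti-apoptotic BCL2 relatives Bcl2a1d called higher in both and Bcl2a1b in NC.

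Between libraries, Ifng-positive HC cells carried more glycolysis and hypoxia transcripts than Ifng-positive NC cells, and so did the rest. Of 5269 genes tested, 45 (0.854%) were at least 2-fold higher in HC members and 46 (0.873%) at least 2-fold higher in NC members, with a median log2 ratio of HC over NC of -0.03, beside -0.04 in the rest. Of these calls, 30 of the 45 and 29 of the 46 reached 20 CPM in 1 library's members alone. Glycolysis genes had a median of 0.95 among members, with 16 of 16 above 0 and 8 called higher in HC, beside 0.86 in the rest. Hypoxia genes had 0.95, with 12 of 12 above 0 and 5 called, beside 0.93. Over all genes tested among members, 45.7% lay above 0. Bnip3, a mitophagy receptor gene induced by low oxygen, was at 9.65 CPM in NC members and 58.1 in HC members, a log2 ratio of 2.59 (2.02 to 3.18), and 2.24 in the rest. Slc16a3, the lactate exporter, was at 18.8 and 81.0 CPM, 2.11 (1.68 to 2.55) in members and 1.95 in the rest. Tpi1, a glycolytic enzyme gene, stood at 1.47 (1.35 to 1.58) and 1.39.

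Chemokine genes other than Ccl5, and Cd160, were lower in HC members. Xcl1 was 7.64-fold (6.90 to 8.49) lower in HC members than in NC members, with log2 ratios of -2.93 (-3.09 to -2.79) in members and -3.12 in the rest. Ccl3 and Ccl4 stood at -1.61 (-1.82 to -1.40) and -1.46 (-1.58 to -1.33) in members, beside -2.51 and -2.28 in the rest. Among members with at least 2 Ifng UMIs, of which HC had 19, they were -0.91 and -0.58, short of 2-fold. Ccl5 was at 422 CPM in HC and 367 in NC members, a log2 ratio of 0.20 (0.07 to 0.34), beside -0.46 in the rest. Cd160, an inhibitory and co-stimulatory receptor, was at 212 CPM in NC members and 58.1 in HC members, -1.87 (-2.20 to -1.55) beside -1.21, and Nrgn, a calmodulin-binding protein gene, at -1.79 (-2.15 to -1.44) beside -1.27. Crtam stood at -1.58 (-2.12 to -1.09) beside -1.65. With only the members that had exactly 1 Ifng UMI, Xcl1 remained lower in HC, at -2.12, as did Cd160 at -1.51.

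Gzmb and Prf1 were both short of a 2-fold difference between the libraries' members. Prf1 was at 60.2 CPM in NC members and 56.8 in HC members, a log2 ratio of -0.09 (-0.45 to 0.27) beside -0.44 in the rest. The 10 highest cells held 39.8% of the NC and 53.9% of the HC members' Prf1 UMIs, so that interval is too narrow. Gzmb was at 1032 CPM in HC members against 632 in NC members, 0.71 (0.62 to 0.80), beside 0.82 in the rest. The gene of the inhibitory receptor Ctla4 was at 174 against 84.2 CPM, 1.05 (0.81 to 1.28) beside 0.39 in the rest, but 0.13 at 2000 UMIs per cell, short of 2-fold. Ifngr1 was 1.57-fold (1.37 to 1.79) higher in HC members, beside a log2 ratio of 0.21 in the rest, and Il2ra 1.57-fold (1.29 to 1.91) higher. Ribosome assembly genes had a median log2 ratio of HC over NC of -0.63 (-0.47 in the rest) and no gene called. Whether members and the rest differ in these ratios was not tested, since 1 library a group allows no test of it.

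**Figure D5:**
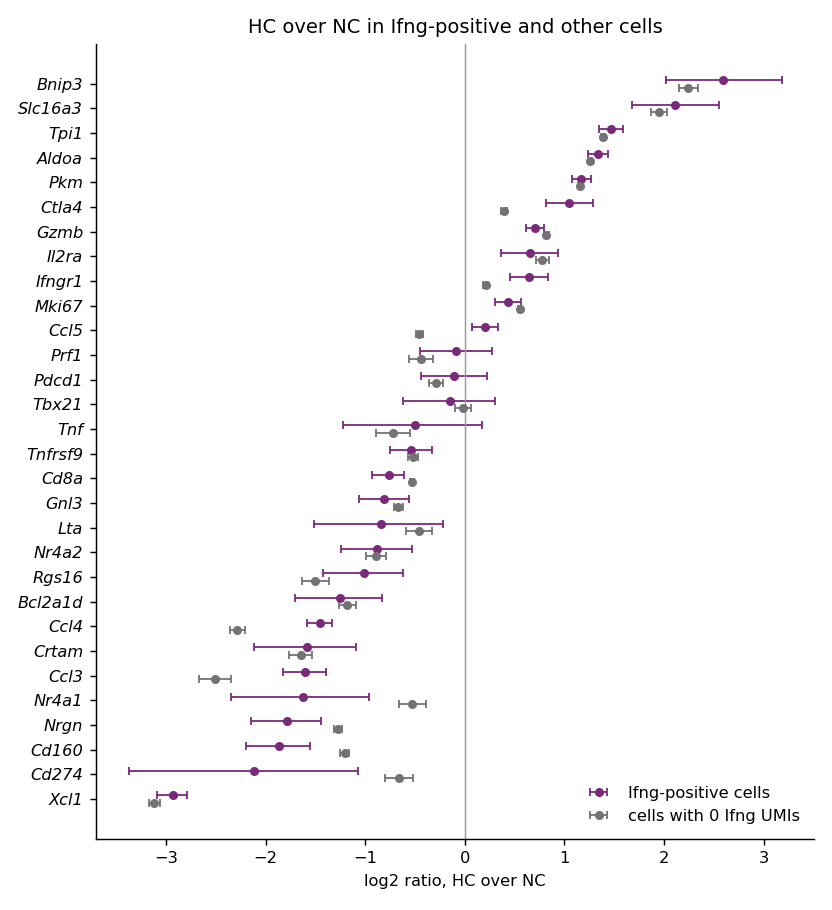
Log2 ratio of HC over NC (x axis) for 30 genes (rows) among Ifng-positive cells and among cells with 0 Ifng UMIs, with exact 95% counting intervals. Bnip3 lies farthest to the right and Xcl1 farthest to the left in both sets, while Ccl3 and Ccl4 lie nearer to 0 and Cd160 and Nr4a1 farther from 0 in Ifng-positive cells.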

How the data were processed

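Both libraries were deposited as 10x count matrices: per the file headers the values are whole UMI counts per gene and cell written by Cell Ranger 6.1.2, with no normalization. The submitters' processing notes list mm10 as the build, with Seurat 3.2.3 and, unlike the header, Cell Ranger 5.0.0. Whether the deposited barcodes had been filtered further is not given in the sources used here, and every sample column was mapped. Barcodes with at least 500 genes, at least 1000 UMIs and at most 10% mitochondrial UMIs were kept, which left 27258 cells. No doublet caller was run and no cells were clustered. Counts were summed over Ifng-positive and Ifng-0 cells of each library and scaled to CPM. A gene was tested at 20 CPM or more in either pool and called at 2-fold. With 1 library a group, no p-value was computed. Intervals are 95% and exact (Poisson for CPM, binomial for shares and for ratios of summed counts) and cover counting error only. Thinning drew 2000 UMIs per cell without replacement. The pooling step was tested on simulated data.

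Named genes were a fixed panel, the 15 genes most like Ifng and the 10 at the other end, up to 4 members of each of 19 gene lists, the 10 highest and 10 lowest HC over NC ratios among members at 50 CPM or more, and markers on 11 cell type lists; other genes named were chosen after their values were seen. The members and lists were chosen with earlier results of these data known. Alternatives covered the Ifng threshold, cell filters, weights, floor, fold and scaling by TMM (edgeR 4.0.16) or median of ratios (DESeq2 1.42.0, size factors only) in R 4.3.3. Other steps used Python 3.11.15, numpy 2.4.6, scipy 1.17.1, pandas 2.3.3 and matplotlib 3.10.9. Promoter sequences came from RefSeq (GRCm38.p6).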

Additional observations from a re-analysis of the deposited data

Results flagged for a closer look

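Ifng was also counted in barcodes that the cell filter left out, which no comparison above uses. In NC, 8 of 1157 such barcodes (0.691%) held 21 Ifng UMIs, and in HC 3 of 1878 (0.160%) held 3. Their medians were 916 UMIs and 39.2% mitochondrial UMIs in NC, and 826 UMIs and 42.2% in HC. The libraries have no control for free RNA, and its part in these counts was not tested.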

How the results depend on the processing

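No paired analysis was possible because each group had 1 library, and for the same reason no replicate could be left out. Counts below are, in order, genes at least 2-fold higher and lower in Ifng-positive NC cells, higher and lower in Ifng-positive HC cells, higher in both libraries, and higher in HC and in NC among Ifng-positive cells; as reported they were 65, 13, 44, 22, 28, 45 and 46. They stayed within 1.5 times under at most 5% mitochondrial UMIs, without barcodes found in both libraries, and with median-of-ratios factors. Without the 10 cells of each library with the most Ifng UMIs they were 47, 11, 33, 20, 18, 47 and 50, and only the count for both libraries went beyond 1.5 times. Other choices of members and cells moved most or all of them: 253, 110, 418, 337, 141, 262 and 363 with at least 2 Ifng UMIs, 162, 109, 273, 243, 62, 341 and 433 when thinned to 2000 UMIs, 120, 47, 64, 50, 41, 92 and 107 without the 5% of cells with the most UMIs, and 430, 298, 1058, 820, 177, 890 and 1127 in cells with 0 UMIs of Mki67 and Top2a, which left 66 NC and 11 HC members. With members of exactly 1 Ifng UMI, an alternative chosen after seeing the data, they were 19, 4, 28, 20, 11, 52 and 42. Weighting every cell equally gave 101, 30, 71, 51, 45, 63 and 64, weighting the rest to the members' depth 41, 3, 20, 5, 16, 73 and 67, and TMM factors 52, 18, 32, 42, 25, 42 and 47. A floor of 5 CPM gave 120, 66, 171, 178, 60, 258 and 221, of 50 CPM 35, 3, 20, 5, 14, 15 and 16 and none 1050, 442, 1086, 452, 263, 944 and 530. A threshold of 1.5-fold gave 271, 140, 263, 187, 133, 219 and 296, and of 3-fold 18, 1, 11, 2, 9, 9 and 9. Fewer cells or a lower floor leave smaller counts per gene; other causes were not tested.

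The NC over HC ratio of the Ifng-positive share, 2.49, was 5.10 with at least 2 Ifng UMIs, 3.46 when thinned and 4.11 in cells with 0 UMIs of Mki67 and Top2a, and between 2.03 and 2.61 under the other 5 alternatives. In cells without Mki67 and Top2a the log2 ratio of HC over NC among members changed sign for Gzmc (2.13), Bcl2a1d (0.73), H1f0 (-0.68) and Tg (-0.025). Among the 19 gene lists, the median log2 ratio changed sign under at least 1 of 17 alternatives for 6 in NC, 10 in HC and 11 between libraries. Of the named genes past 2-fold, 22 of 47 in NC, 18 of 35 in HC and 12 of 28 between libraries were past it under all 12 alternatives of cells, weights and scaling; Tcf7, Iigp1, Pdcd1, Il2ra, Tnfrsf4 and Cdkn1a were among those that were not in NC.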
